A study of Mus musculus with 6 samples.

Results

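The genes described here are 34 members and targets of the p53 pathway measured in the line bEnd.3, which is endothelium of mouse brain transformed with the polyoma virus middle T antigen, with and without added miR-423-5p. They were chosen by name, from the genes of p53 itself, its partners and its known targets, with earlier results of these data known. All 34 were found among the 30768 genes of the deposited table. RNA was sequenced in 6 libraries, 3 from cells with a control mimic and 3 from cells with the miR-423-5p mimic, a synthetic stand-in for the mature microRNA. No other difference between the groups is given in the labels. Both groups are the same line, and neither the dose of the mimic nor the time after its delivery is given in the sources used here. The comparison asks what the added microRNA did to the level of these messenger RNAs.

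The transcription factor p53 is held at a low level by the ubiquitin ligase Mdm2, whose gene is itself a p53 target, so that p53 and Mdm2 form a feedback loop. When DNA damage or other stress frees p53, it raises genes that halt the cell cycle, repair DNA, adjust metabolism or lead to cell death. In endothelial cells the same genes are known for growth arrest and apoptosis after irradiation, and many of them also answer to other stress factors.

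A microRNA pairs with messenger RNAs through its seed, bases 2 to 8, and lowers them. The mature sequence is shown because its seed sets which messages could be bound, with the seed in capitals (RefSeq, build GRCm38.p6, chr11:77078122-77078144, minus strand):

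mmu-miR-423-5p: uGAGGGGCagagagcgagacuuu

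The complement of the seed, GCCCCTC, was searched on the message strand of the 3' UTR, taking the longest one annotated for a gene. It occurred in 5 of the 33 members that were tested (15.2%), and in 13.3% of the 13708 tested genes with a 3' UTR. All 5 are members whose level fell (below): 5 of 18 (27.8%), against 0 of the 15 other tested members. Among all tested genes called lower the site was in 23.9%, and among those not called lower in 12.3%. A match describes the letters and does not show that the microRNA binds there. A match in each of the 5 members is shown with its surroundings, as a place where the seed could pair, with the match in capitals and, for an 8mer, the A that follows it (GENCODE M21 transcripts, build GRCm38; the coordinates are those of the capitals).

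Rbm38, 8mer, chr2:173034100-173034107, plus strand: tccccccagttGCCCCTCAgtcgaagcact
Cdkn1a, chr17:29100056-29100062, plus strand: ctctgccagctGCCCCTCtattttggaggg
Aen, chr7:78910947-78910953, plus strand: gactattgataGCCCCTCccagggggagtc
Zmat3, chr3:32340417-32340423, minus strand: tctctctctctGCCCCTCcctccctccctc
Btg2, chr1:134076285-134076291, minus strand: cggacctcccaGCCCCTCctgatgccctgg

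Promoter windows of 300 bases, from 250 before to 50 after the start site, were given by RefSeq for 26 of the 34 members. The p53 half-site, the consensus of which a full p53 element holds a pair, was searched as an exact match. It reads the same on both strands, so that 1 search covers both. A match was found in 10 of the 26 members (38.5%) and in 9.55% of the 27025 genes with a window. Counted by window, the shares were 28.9% of 38 and 8.36% of 32851. Members whose level fell held a match in 5 of 14 cases (35.7%) and the others in 5 of 12 (41.7%). The letters CATG, the core of the strongest half-sites, were in 42.3% of the members, 55.6% of tested genes and 64.8% of all genes. 3 windows are shown, those of a pair of genes that fell and of Ccng1, which was not called, with each exact match in capitals. A stretch that differs from the consensus at any base is left in lower case, also where it adjoins a match. The capitals therefore need not mark full p53 elements. A match describes the letters and does not show that p53 binds there. The window of Cdkn1a is that of the upstream one of its RefSeq start sites. Its other RefSeq window held 0 matches. The matches of Cdkn1a begin 73 and 51 bases before the start site, and those of Mdm2 and Ccng1 begin 186 and 185 bases before it. The matches of Cdkn1a were not shown to form a single element.

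Cdkn1a, GRCm38.p6, chr17:29090729-29091028, plus strand: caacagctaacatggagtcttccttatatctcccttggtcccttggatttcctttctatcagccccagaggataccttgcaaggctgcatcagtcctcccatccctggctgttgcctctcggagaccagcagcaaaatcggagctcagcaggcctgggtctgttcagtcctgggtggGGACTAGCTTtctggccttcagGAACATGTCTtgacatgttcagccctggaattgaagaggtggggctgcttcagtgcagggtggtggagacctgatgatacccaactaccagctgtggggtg
Mdm2, GRCm38.p6, chr10:117710709-117711008, minus strand: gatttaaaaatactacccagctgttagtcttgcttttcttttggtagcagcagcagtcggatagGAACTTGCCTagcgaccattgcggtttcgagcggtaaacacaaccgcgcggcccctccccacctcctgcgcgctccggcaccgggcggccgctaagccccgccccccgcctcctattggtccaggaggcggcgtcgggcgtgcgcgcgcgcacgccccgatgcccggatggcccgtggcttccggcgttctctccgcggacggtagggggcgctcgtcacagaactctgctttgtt
Ccng1, GRCm38.p6, chr11:40755237-40755536, minus strand: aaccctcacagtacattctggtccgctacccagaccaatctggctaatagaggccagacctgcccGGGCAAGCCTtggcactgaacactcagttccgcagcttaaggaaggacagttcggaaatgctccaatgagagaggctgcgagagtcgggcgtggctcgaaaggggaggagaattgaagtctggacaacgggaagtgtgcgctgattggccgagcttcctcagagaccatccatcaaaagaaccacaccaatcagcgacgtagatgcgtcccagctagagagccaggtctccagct

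Total counts ran from 63217696 to 78456344 per library. Separate cultures are not stated for the libraries within a group, so p-values speak of the spread between these 6 libraries only, and that spread may be technical. Endothelial markers were present: 8 of 8 had counts in every library, with Cldn5 lowest at 0.11 to 0.66 CPM (counts scaled to the adjusted size of the library). Their summed level was 1840 to 2000 CPM in the controls and 3130 to 3450 CPM in the miR-423-5p libraries, and 7 of 8 rose. The 8 fibroblast and pericyte markers summed to 68.3 to 173 CPM in the controls and 11.6 to 17.8 CPM in the miR-423-5p libraries, and 5 fell. Control 3 stood apart, with the macrophage gene Adgre1 at 25.1 CPM against at most 0.059 CPM elsewhere and the neuron gene Snap25 at 8.84 CPM against at most 0.0286 CPM. The 5 macrophage markers, most of whose level was Cd68, summed to 578 to 820 CPM in the controls and 706 to 987 CPM in the miR-423-5p libraries, with 0 of 3 tested called by edgeR (3 at an unadjusted p under 0.05). The 5 neuron markers summed to 41.7 to 82.0 CPM and 122 to 148 CPM, and 1 of 3 tested, Nefl, rose. Adgre1 and Rbfox3 were at 0 counts in all miR-423-5p libraries. The part of these differences in the results below was not tested. Fewer cells of a type and less RNA per cell cannot be told apart here.

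Most of the p53 genes that moved fell. Of 33 members tested, 18 fell with the miR-423-5p mimic (54.5%), 1 was higher, and 14 were not called, by edgeR's quasi-likelihood test at a Benjamini-Hochberg adjusted p under 0.05 over all 18103 genes tested. Over all genes, 7.21% of those tested were called lower and 9.09% higher. The median log2 fold change of the members was -0.58, and that of all tested genes was -0.02. The members were chosen with earlier results of these data known, so the shares and medians only describe them. Of the 18 that fell, 5 did so by 2-fold or more: Psrc1, Rbm38, Gadd45a, Sesn2 and Perp. Perp, counted among the 18, was near the limit of detection and passed the filter on low counts through the controls alone. Pmaip1 did not pass the filter on low counts. Libraries of the groups did not overlap, with all controls higher, for 22 of the 33 members, as for 19.6% of all tested genes. With all controls lower they did not overlap for 2 members, Plk3 and Tnfrsf10b, as for 18.8% of all tested genes. Scaling to total counts moved the median of all genes to -0.18 and that of the members to -0.74, and again 18 members were lower and 1 higher. With it, 25.4% of all calls were higher, against 55.8% before. Of the 18, 12 were called lower in every fit that left out 1 library. Leaving out control 1, 2 or 3 gave 12, 14 or 17 members that fell, and leaving out miR-423-5p library 1, 2 or 3 gave 16, 20 or 14. Over all genes, 426, 372 or 868 fell without control 1, 2 or 3, against 1305 with all libraries. Without miR-423-5p library 1, 2 or 3, 600, 1836 or 487 of all genes fell. Plk3 rose in each of these fits.

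**Figure D1:**
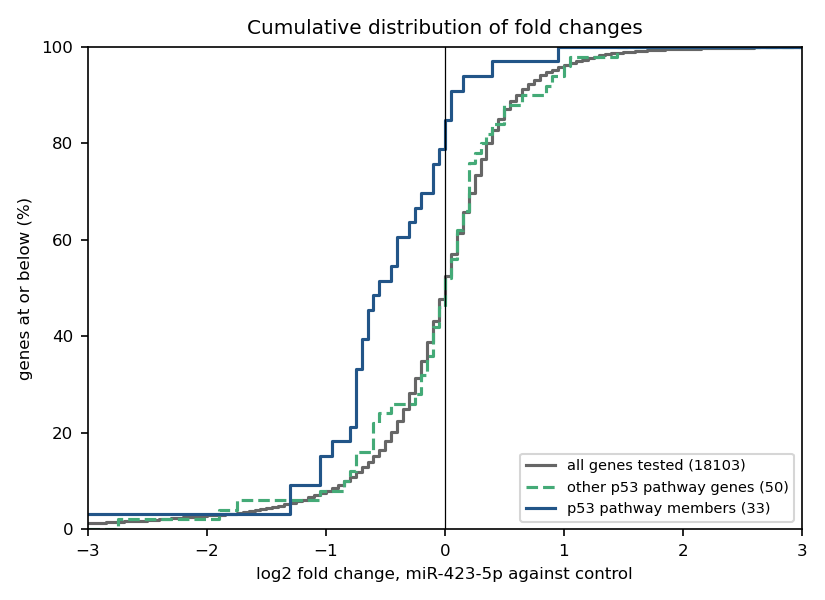
Cumulative share of genes (%) against the log2 fold change between the miR-423-5p and control libraries, in steps of 0.05, for the 33 tested members, the 50 tested other p53 pathway genes and all 18103 tested genes. The curve of the members lies to the left, with a median of -0.58, and the other p53 pathway genes have a median of -0.01.

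The summed level of the 34 members was 3610, 3540 and 3330 CPM in controls 1, 2 and 3 and 2690, 2630 and 2630 CPM in miR-423-5p libraries 1, 2 and 3. The members together took 0.354% to 0.379% of all counts in the controls and 0.246% to 0.253% in the miR-423-5p libraries. Per gene length, in FPKM (fragments scaled to gene length and library size, the authors' values), the most abundant members over all 6 libraries were Phlda3 (179 FPKM), Gdf15 (158 FPKM), Cdkn1a (81.7 FPKM), Ccng1 (63.4 FPKM) and Trp53 (62.1 FPKM). Among these 5, Gdf15 and Cdkn1a fell, and Phlda3, Ccng1 and Trp53 were not called. At the other end stood Rrm2b (0.706 FPKM), Perp (0.0665 FPKM) and Pmaip1 (0.051 FPKM), and the remaining 31 had a mean of 1 FPKM or more.

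**Figure D2:**
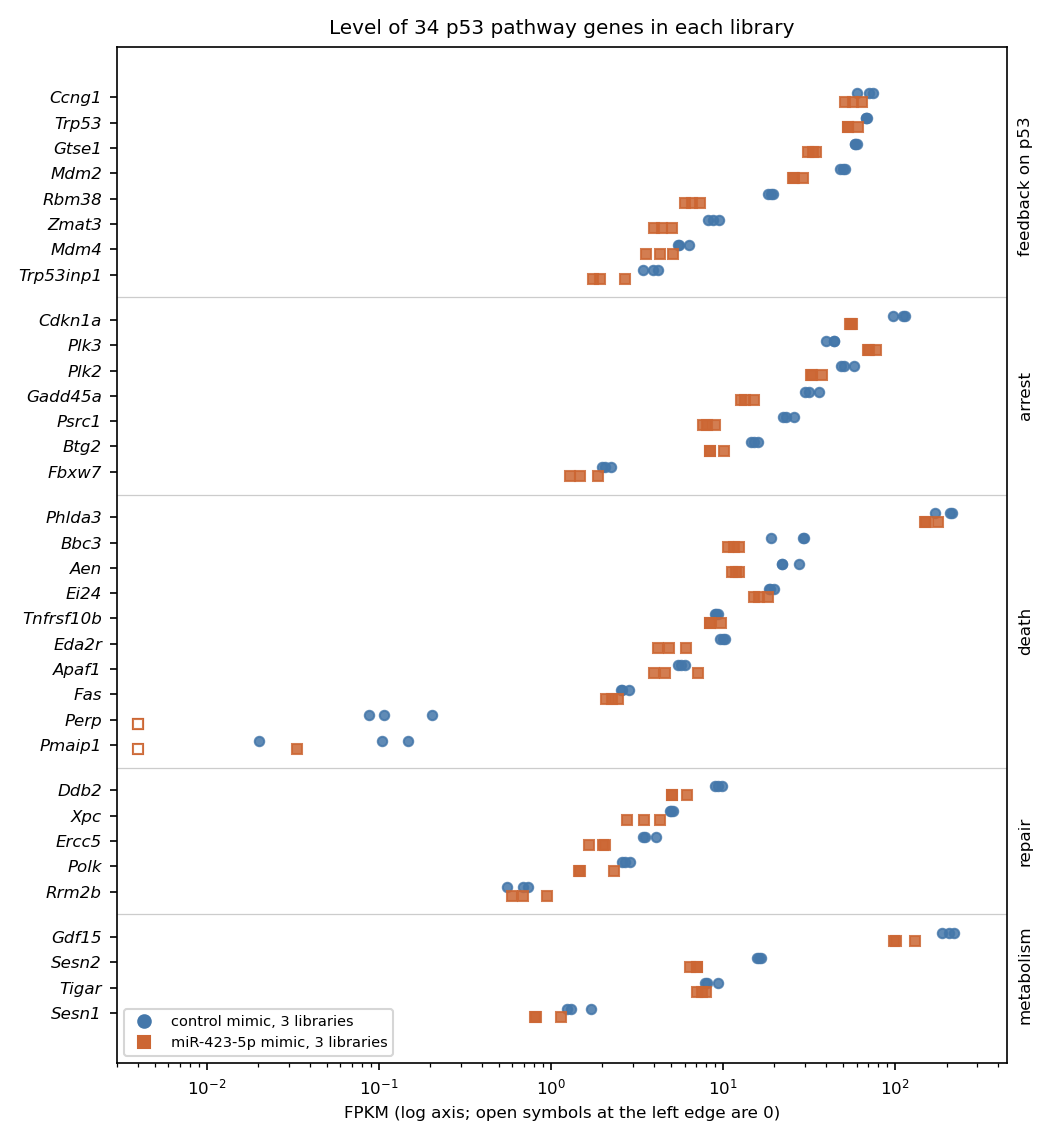
Level of each of the 34 genes in FPKM, on a log axis, with 1 symbol per library (circles for the 3 control libraries, squares for the 3 miR-423-5p libraries) and the genes grouped by class. Phlda3 and Gdf15 stand highest, at means of 179 and 158 FPKM over all libraries, and Perp is at 0 in the 3 miR-423-5p libraries.

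Trp53, the gene of p53, was abundant and was not called different. It is on chromosome 11 from 69580359 to 69591873, and stood at 285, 280 and 272 CPM in controls 1, 2 and 3 and at 284, 239 and 257 CPM in miR-423-5p libraries 1, 2 and 3. The groups overlapped, and Trp53 changed by less than the test could call (log2 fold change -0.10 ± 0.0842, SE; edgeR adjusted p = 0.433). On log2(FPKM + 1) with limma, Trp53 was called lower, with a log2 fold change of -0.29, and so were Polk and Xpc. In that alternative the median of all 11905 genes was -0.12, with 2193 called lower and 746 higher. Of the 8 genes classed as p53 or feedback on it, 5 fell, none rose and 3 were not called, with a median log2 fold change of -0.67. Each gene was placed in a single class by choice, and some, such as Psrc1 (arrest) and Gtse1 (feedback), could be placed elsewhere.

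Mdm2, which marks p53 for destruction, fell 1.63-fold. Its gene, on chromosome 10 from 117688875 to 117710758, stood at 264, 268 and 237 CPM in the controls and at 152, 164 and 156 CPM in the miR-423-5p libraries. The lowest control lay above the highest miR-423-5p library, and the gene was called (log2 fold change -0.70 ± 0.0792, SE; edgeR adjusted p = 0.00199). Mdm4, a relative of Mdm2 that blocks activation by p53, was at 87.0 ± 4.17 CPM in the controls and, with the mimic, 74.0 ± 11.8 CPM (SD, n = 3). The libraries of Mdm4 did not overlap, but miR-423-5p 2, at 84.1 CPM, lay just below the lowest control, at 84.5 CPM, and the gene was not called (log2 fold change -0.23 ± 0.12, SE; edgeR adjusted p = 0.222).

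The largest fall among the feedback genes was that of Rbm38, which encodes an RNA-binding protein known in human cells to stabilise the Cdkn1a message and to limit translation of the p53 message. It is on chromosome 2 from 173020498 to 173034734. The 8mer seed match shown above is not the only one in its 3' UTR. Rbm38 stood at 58.2, 56.0 and 51.4 CPM in the controls and at 24.3, 19.2 and 22.7 CPM in the miR-423-5p libraries. Each miR-423-5p library was under the lowest control, and the gene was 2.50-fold lower (log2 fold change -1.32 ± 0.113, SE; edgeR adjusted p = 0.000947). Zmat3, a zinc finger protein that binds RNA, went from 97.1, 102 and 106 CPM to 57.9, 64.3 and 54.8 CPM, 1.72-fold lower. Gtse1, a microtubule-binding protein that can carry p53 out of the nucleus, went from 171, 165 and 157 CPM to 110, 102 and 102 CPM, 1.58-fold lower. For both, the groups stood apart (edgeR adjusted p = 0.00183 for Zmat3 and 0.00196 for Gtse1).

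Trp53inp1, a p53-induced cofactor, fell 1.61-fold, from 26.5, 27.9 and 22.0 CPM to 13.1, 19.3 and 15.0 CPM (log2 fold change -0.69 ± 0.167, SE; edgeR adjusted p = 0.0309). Leaving out any library other than control 3 or miR-423-5p 2 lost that call, as did testing with no filter on low counts. Ccng1, the cyclin G1 gene, whose product brings a phosphatase to Mdm2, is among the targets most often used to read p53 activity. It stood at 256, 269 and 208 CPM in the controls and at 208, 251 and 241 CPM in the miR-423-5p libraries. These values overlapped, and Ccng1 was not called (log2 fold change -0.07 ± 0.12, SE; edgeR adjusted p = 0.745).

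**Figure D3:**
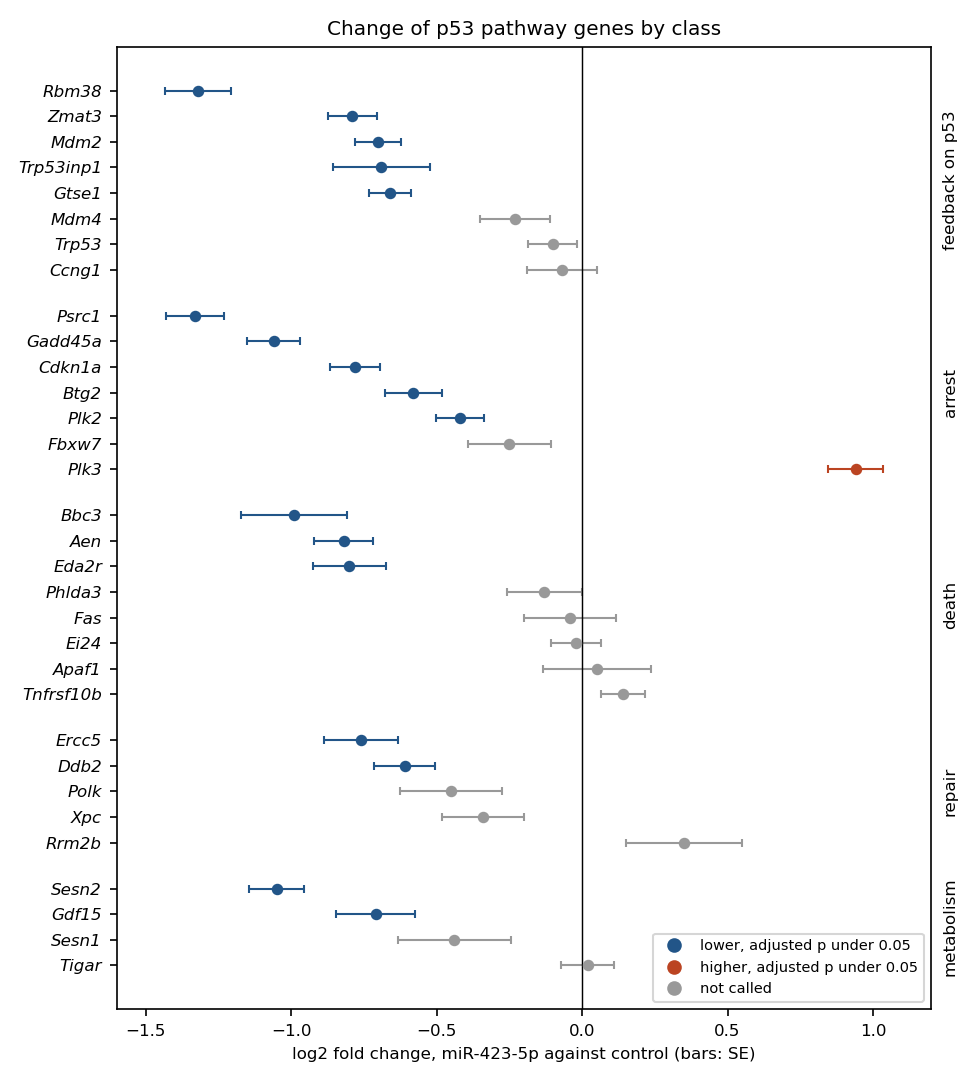
Log2 fold change between the miR-423-5p and control libraries, with its SE, for 32 tested members grouped by class (Perp, at 0 in 1 group, is left out). Dark blue marks genes called lower, red the gene called higher and grey those not called. Plk3 stands alone on the right at 0.94, and each class holds genes called lower and genes that were not.

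Genes of cell cycle arrest held 5 of the 18 members that fell and the single rise. Of 7 tested, 5 fell, 1 rose and 1 was not called, with a median log2 fold change of -0.58. Cdkn1a, on chromosome 17 from 29090976 to 29100727, encodes p21, the inhibitor of cyclin-dependent kinases through which p53 stops the cycle. It stood at 421, 352 and 390 CPM in the controls and at 229, 218 and 232 CPM in the miR-423-5p libraries. The miR-423-5p libraries lay close together and well under the controls, and Cdkn1a was 1.71-fold lower (log2 fold change -0.78 ± 0.0871, SE; edgeR adjusted p = 0.00199). Psrc1, a spindle protein gene, went from 80.8, 76.5 and 85.1 CPM to 35.1, 28.6 and 32.8 CPM, 2.51-fold lower (edgeR adjusted p = 0.000815). Gadd45a, a stress sensor that binds p21 and the sliding clamp of replication, went from 54.7, 56.9 and 62.9 CPM to 27.1, 29.7 and 27.0 CPM, 2.08-fold lower (edgeR adjusted p = 0.000985). For Psrc1 and Gadd45a, no library of one group came near the range of the other, and both calls held without any single library.

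Plk3 moved the other way from its relative Plk2. Both are polo-like kinases of the stress response. Plk3, on chromosome 4 from 117128655 to 117133963, stood at 117, 115 and 98.7 CPM in the controls and at 225, 196 and 215 CPM in the miR-423-5p libraries. Every miR-423-5p library was above every control, and Plk3 rose 1.92-fold (log2 fold change 0.94 ± 0.0951, SE; edgeR adjusted p = 0.00144). It rose in every alternative run. Plk2 stood at 236, 222 and 254 CPM in the controls and at 169, 187 and 177 CPM in the miR-423-5p libraries, 1.34-fold lower (log2 fold change -0.42 ± 0.0823, SE; edgeR adjusted p = 0.0153). Leaving out control 1 lost the calls for Plk2 and Btg2, and leaving out miR-423-5p 1 or 3 lost that for Plk2. Btg2, an antiproliferative gene, went from 45.5, 41.2 and 40.7 CPM to 26.6, 30.9 and 27.7 CPM, 1.49-fold lower (edgeR adjusted p = 0.00899). Fbxw7, the subunit that picks cyclin E for destruction, was not called, at 15.0 ± 0.518 and 12.6 ± 2.09 CPM (SD, n = 3; edgeR adjusted p = 0.255). Without control 1, 3 genes of the class fell.

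**Figure D4:**
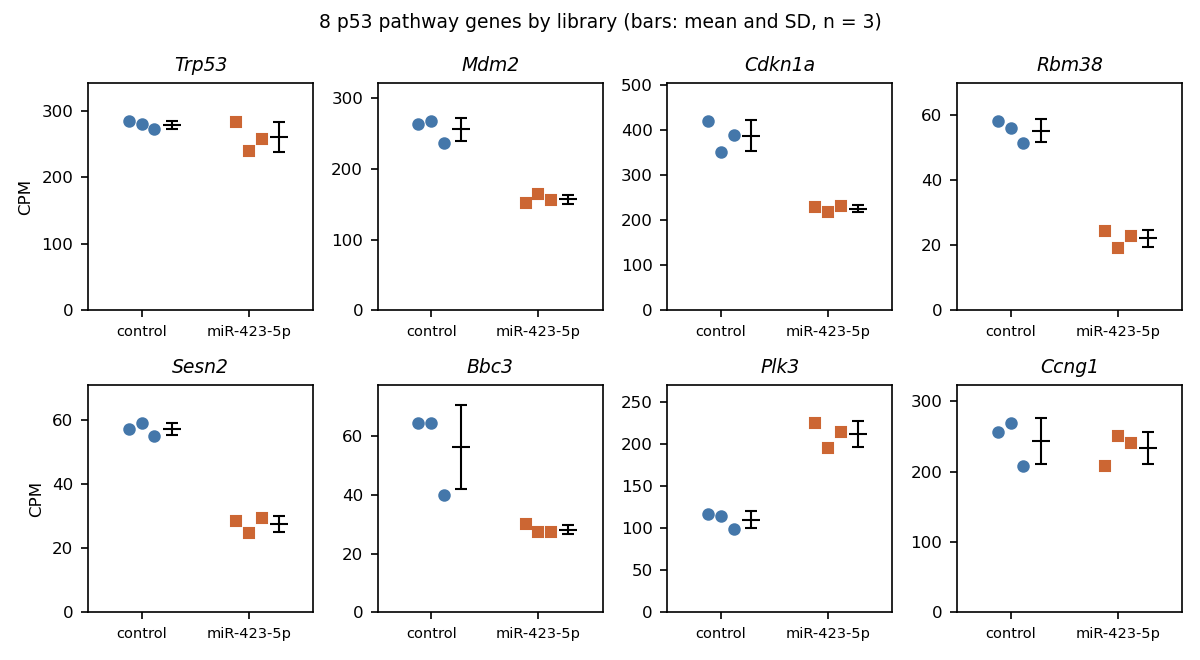
CPM of 8 members in each of the 3 control (circles) and 3 miR-423-5p (squares) libraries, from 0, with the mean and SD beside them. Mdm2, Cdkn1a, Rbm38, Sesn2 and Bbc3 are lower in every miR-423-5p library than in any control, Plk3 is higher, and Trp53 and Ccng1 overlap.

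Genes of cell death were split. Of 9 tested, 4 fell and 5 were not called, with a median log2 fold change of -0.13. The 4 include Perp, which was near the limit of detection (below). With a filter of mean 1 CPM, which left Perp out, 3 death genes fell. Bbc3, which encodes the BH3-only protein PUMA, the main killer among p53 targets in many cells, stood at 64.3, 64.4 and 39.8 CPM in the controls and at 30.2, 27.2 and 27.4 CPM in the miR-423-5p libraries. Control 3 lay far below the other controls but above every miR-423-5p library, and Bbc3 was 1.99-fold lower (log2 fold change -0.99 ± 0.183, SE; edgeR adjusted p = 0.0121). Leaving out control 1, control 2 or miR-423-5p 3 lost the call, and without control 3 the log2 fold change was -1.19.

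Aen, a nuclease that takes part in apoptosis, went from 132, 132 and 158 CPM to 83.5, 72.8 and 82.7 CPM, 1.76-fold lower (edgeR adjusted p = 0.00266). Eda2r, a receptor of the tumour necrosis factor family, went from 58.6, 61.8 and 57.6 CPM to 28.4, 39.7 and 34.3 CPM, 1.74-fold lower (edgeR adjusted p = 0.00672). Neither gene overlapped between the groups, and both were called without any single library.

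Of the remaining death genes, 2 were scarce. Perp, a membrane protein of desmosomes and apoptosis, had 15, 13 and 29 counts in the controls and 0 in each miR-423-5p library. Set against 3 counts per library, the floor for a count of 0, Perp was at least 5.97-fold lower (edgeR adjusted p = 0.0175). Perp passed the filter on low counts through the controls alone, so its call could only be lower. The fold and the call therefore only describe these counts. At 0.265 ± 0.115 CPM (SD, n = 3) it was near the limit of detection even in the controls, with its highest count in control 3, and the call was lost on leaving out any of the controls. With a block on the replicate number it was lost too (edgeR adjusted p = 0.0539, and 0.00177 to 0.0695 over all alternatives that tested it). Pmaip1, the gene of the BH3-only protein NOXA, had 4, 31 and 21 counts in the controls and 0, 8 and 0 in the miR-423-5p libraries. It did not pass the filter on low counts and was not tested in the main comparison. With no filter it was tested and not called (edgeR adjusted p = 0.353), nor was it called by DESeq2 (adjusted p = 0.227) or in the 4 fits with a library left out that tested it.

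Phlda3, a p53 target that restrains the kinase Akt and the most abundant member per length, stood at 346, 332 and 261 CPM in the controls and at 319, 259 and 277 CPM in the miR-423-5p libraries. The groups overlapped (log2 fold change -0.13 ± 0.129, SE; edgeR adjusted p = 0.515). Fas, the death receptor gene, was at 5.59 ± 0.458 and 5.43 ± 0.557 CPM, and Ei24, an endoplasmic reticulum protein gene, at 94.2 ± 6.04 and 92.8 ± 6.89 CPM (SD, n = 3; edgeR adjusted p = 0.887 and 0.893). Apaf1, the core of the apoptosome, was at 51.3, 55.7 and 50.6 CPM in the controls and at 41.2, 71.6 and 50.0 CPM in the miR-423-5p libraries, so that miR-423-5p 2 alone lay above the controls (edgeR adjusted p = 0.891). Tnfrsf10b, the TRAIL receptor gene, was at 50.6, 50.5 and 50.2 CPM in the controls and at 53, 58.8 and 55.0 CPM in the miR-423-5p libraries. Its groups did not overlap, but it was not called (log2 fold change 0.14 ± 0.0753, SE; edgeR adjusted p = 0.241), and its log2 fold change was -0.02 with total-count scaling. Of the death genes, 2 fell without control 1 or without control 2.

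Among the 5 repair genes, 2 fell and 3 were not called, with a median log2 fold change of -0.45. Ercc5, the gene of the endonuclease XPG, went from 25, 21.3 and 19.8 CPM to 13.6, 13.5 and 11.8 CPM, 1.70-fold lower (log2 fold change -0.76 ± 0.128, SE; edgeR adjusted p = 0.00875). Ddb2, a subunit of the protein that finds ultraviolet damage, went from 26.6, 25.2 and 26.4 CPM to 16.0, 18.8 and 16.5 CPM, 1.52-fold lower (edgeR adjusted p = 0.00932). Both sets stood apart, but the value of Ddb2 is uncertain: 23.8% of its exon bases overlap those of Acp2 on the other strand, which had a mean of 54.1 CPM against 21.6 CPM, and whether counting used the strand is not given in the sources used here. No other member shared more than 19.1% of its exon bases with another gene, and the partners were at no more than 1.93 CPM where a level is given.

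Xpc, which recognises damage in nucleotide excision repair, stood at 28.1, 29.0 and 27.1 CPM in the controls and at 22.0, 26.3 and 18.3 CPM in the miR-423-5p libraries. Polk, a polymerase that copies past damaged bases, stood at 14.9, 16.4 and 14.6 CPM and at 9.42, 14.3 and 9.78 CPM. In both genes miR-423-5p 2 was the highest of its group and lay just under the controls, and neither was called (edgeR adjusted p = 0.141 for Xpc and 0.12 for Polk). Without miR-423-5p 2 both were called lower, with log2 fold changes of -0.46 and -0.65, and 4 of the 5 repair genes fell. Calls of lower over all genes also rose in that fit, from 1305 to 1836. Rrm2b, the p53-induced subunit of ribonucleotide reductase, was at 6.15 ± 0.836 CPM and, with the mimic, 7.84 ± 1.69 CPM (SD, n = 3; edgeR adjusted p = 0.262).

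Of 4 genes classed under metabolism, 2 fell and 2 were not called, with a median log2 fold change of -0.57. Sesn2, a sestrin that restrains the growth kinase mTORC1 and answers both to p53 and to the stress factor ATF4, is on chromosome 4 from 132492032 to 132510501. It stood at 57.1, 58.9 and 55.0 CPM in the controls and at 28.3, 24.6 and 29.4 CPM in the miR-423-5p libraries. The groups stood far apart, and Sesn2 was 2.08-fold lower (log2 fold change -1.05 ± 0.0952, SE; edgeR adjusted p = 0.00109). Its relative Sesn1, which is scarcer per length (1.18 FPKM against 11.6 FPKM), was at 5.73 ± 0.848 and 4.23 ± 0.703 CPM and was not called (SD, n = 3; log2 fold change -0.44 ± 0.194, SE; edgeR adjusted p = 0.163).

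Gdf15, a secreted stress hormone of the TGF-beta family, went from 394, 420 and 341 CPM to 279, 201 and 227 CPM. Every miR-423-5p library was under the controls, and Gdf15 was 1.64-fold lower (log2 fold change -0.71 ± 0.136, SE; edgeR adjusted p = 0.014). Leaving out any of control 1, control 2 and miR-423-5p 3 lost that call and left 1 gene of the class called. Tigar, a phosphatase that slows glycolysis, was not called, at 31.3 ± 2.13 and 31.7 ± 0.638 CPM (SD, n = 3; log2 fold change 0.02 ± 0.0909, SE; edgeR adjusted p = 0.916).

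Within a group, the same library often stood highest or lowest. Among the 32 members with 10 or more counts in every library, miR-423-5p 2 was the highest of its group for 19 (59.4%), while it was the highest for 41.0% of all 15644 such genes. Control 3 was the lowest of its group for 20 members (62.5%), and for 42.3% of all such genes. Without each of these libraries 20 and 17 members fell, as given above.

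Other genes of the p53 pathway moved in both directions. A list of 56 other pathway genes, sensors and modifiers of p53 and further targets, had 50 tested, of which 9 fell, 9 rose and 32 were not called, with a median log2 fold change of -0.01. Of its 14 tested sensors, kinases and modifiers, 1 fell and 1 rose. Hipk2, a kinase that phosphorylates p53, was 2.13-fold lower, at 13.4 ± 1.85 CPM in the controls and 6.28 ± 1.15 CPM with the mimic (SD, n = 3; edgeR adjusted p = 0.00759). Nqo1, an oxidoreductase that can shield p53 from degradation, was 1.55-fold higher (edgeR adjusted p = 0.0112). The kinase gene Atm was at 37.3 ± 7.58 and 22.0 ± 8.11 CPM and was not called (edgeR adjusted p = 0.0898), and Cdkn2a, whose ARF product holds Mdm2 in check, was at 9.47 ± 0.908 and 9.0 ± 0.779 CPM (SD, n = 3; edgeR adjusted p = 0.747).

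Of 36 other targets tested, 8 fell and 8 rose. Pidd1, the scaffold of the PIDDosome, was 1.75-fold lower, the stress transcription factor gene Atf3 1.52-fold lower and the mTORC1 inhibitor gene Ddit4 1.81-fold lower (edgeR adjusted p = 0.00314, 0.00626 and 0.00827). In the other direction, Kank3, an adaptor of the Kank family, was 2.66-fold higher, with 43.1 ± 9.43 CPM in the controls and 115 ± 4.70 CPM with the mimic (SD, n = 3; edgeR adjusted p = 0.00172). Cd82, a tetraspanin that hinders metastasis, was 2.04-fold higher, the stress gene Ier3 1.81-fold higher and the sulfatase gene Sulf2 1.39-fold higher (edgeR adjusted p = 0.00199, 0.00242 and 0.00489). Bax, a pore-forming effector of apoptosis, was not called, at 183 ± 26.7 and 198 ± 28.3 CPM (SD, n = 3; edgeR adjusted p = 0.617). Of the 50 other genes, 4 fell without control 1 or control 2 and 5 without miR-423-5p 3, and 15 fell with DESeq2. Without control 1, 5 rose.

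By the KEGG annotation deposited with the table, 71 genes belong to p53 signalling. Of 65 tested, 18 fell and 7 rose. Setting aside the members, 48 were tested, of which 9 fell and 7 rose, with a median log2 fold change of -0.02. The difference between the members and these lists was not tested.

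Genes of neighbouring programmes were also measured. Of 15 cell cycle genes that p53 lowers through p21 and the DREAM repressor complex, 6 fell and none rose, with a median log2 fold change of -0.23. Mybl2, a transcription factor of the cell cycle, went from 163 ± 0.676 CPM to 70.5 ± 11.2 CPM, 2.32-fold lower (SD, n = 3). It was joined by the mitotic kinase gene Aurkb, 1.32-fold lower, and the centromere protein gene Cenpf, 1.46-fold lower (edgeR adjusted p = 0.00126, 0.0107 and 0.0244). Of 7 targets of ATF4 outside the members, 4 fell and none rose, with a median log2 fold change of -0.39. Chac1, a glutathione-degrading enzyme, was 1.96-fold lower, at 74.6 ± 2.51 CPM in the controls and 38.1 ± 4.24 CPM with the mimic (SD, n = 3; edgeR adjusted p = 0.00147), and Atf3 is on this list too. The part of either programme in the fall of the members was not tested.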

How the data were processed

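The table that the authors deposited gives raw counts of reads, and FPKM, for 30768 genes in each of 6 libraries, per the file headers. Cutadapt 1.9, HISAT2 2.2.1, StringTie 2.1.6, DESeq2, edgeR and the build GRCm38 are named, without roles, per the submitters' processing notes. How counts and FPKM were made, strand included, is not given in the sources used here.

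The main test was edgeR 4.0.16 under R 4.3.3 on the counts, with filterByExpr, TMM scaling and the quasi-likelihood fit with group as the only term, and Benjamini-Hochberg adjustment over 18103 genes and a threshold of 0.05. CPM are counts over TMM-adjusted library sizes. The SE is the log2 fold change over the square root of F. The fit was tested on simulated data. FPKM served for levels and for 1 alternative with limma 3.58.1. Other alternatives were DESeq2 1.42.0, its size factors, total-count scaling, other filters, a block on the replicate number and each library left out. Seed matches used GENCODE M21, and 29 of 34 members have the same coordinates there as in the table. The members, classes and lists were chosen with earlier results of these data known. All members are named; of other lists, those with the smallest p by a set rule, with Nqo1, Atm, Cdkn2a and Bax added after their values were seen. Likeness to Cdkn1a across libraries is not given, since the libraries fall into 2 groups. The floor for a count of 0 was 3 counts and covers counting error alone. Within groups, all pairs of libraries differed by more than sampling noise (chi-square per degree of freedom of 16.8 or more). Total counts ran from 63217696 to 78456344 per library. Some seed matches are not reported here.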

Additional observations from a re-analysis of the deposited data

How the results depend on the processing

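The direction of all 19 called members was kept under every alternative that tested them. The number of members called lower was 18 with all libraries, 17 with no filter, with a filter of mean 1 CPM and with the replicate block, 20 with limma on log2(FPKM + 1), and 12 to 20 with a library left out, and 1 was higher throughout. Class counts with a library left out ran from 3 to 5 for arrest, 2 to 4 for death, 2 to 4 for repair, 1 to 2 for metabolism and 4 to 5 for feedback, and 4 repair genes were lower with limma on FPKM. Other p53 pathway genes called lower were 15 with DESeq2 and 4 to 10 with a library left out, and those called higher 5 to 9. Of the members not called, the log2 fold change changed sign for Tnfrsf10b (-0.02 with total-count scaling, -0.04 with limma), Tigar (-0.14, -0.14, -0.01 with the filter of mean 1 CPM and -0.02 to 0.07 with a library left out) and Apaf1 (-0.11, -0.14 and -0.19 to 0.21), and with a library left out for Fas (-0.10 to 0.06, with 0.02 without control 2), Ccng1 (-0.17 to 0.01) and Ei24 (-0.07 to 0.04, with 0.03 without control 1). The cause of these changes of sign was not tested, and the fits with a library left out also had fewer libraries. Same-numbered libraries did not clearly deviate together (correlations of 0.0749, -0.0264 and 0.0498), and other pairs ran from -0.112 to 0.0745. With 3 libraries per group, this cannot show whether same-numbered libraries were handled together. With the replicate block 17 members were called lower, without Perp. Over all genes the calls numbered 2951, 1852 with no filter and 942 to 4222 with a library left out. Those called lower numbered 1305, 2193 of 11905 with limma on log2(FPKM + 1) and 372 to 1836 with a library left out. Scarce members (Perp, Pmaip1) are limited by depth.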
